A study of Vitis vinifera with 27 samples.

Results

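The genes described here are annotated as, or match, enzymes that take pectin apart, namely pectinesterases, pectate lyases and polygalacturonases. They were measured in the ripening grape berry. The annotation does not show that each gene encodes such an enzyme. A gene was included when its closest protein or its first KEGG orthology entry was named pectinesterase, pectin methylesterase, pectate lyase, polygalacturonase or pectin acetylesterase. This gave 148 of the 28940 genes of the table, 128 by KEGG orthology and 20 by the closest protein alone. Of the 148 genes, 17 were listed at 0 in all 27 libraries and 131 were above 0 in at least 1 library. A value of FPKM 1 or more in at least 3 libraries was required for testing, which 57 of the 148 genes and 19761 genes of the table met. FPKM counts fragments relative to transcript length and to the mapped fragments of the library, so levels of different genes are compared here per length.

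All berries came from own-rooted Cabernet Sauvignon vines of one vineyard and one season. In the leaf removal treatment (LR-V), the basal leaves around the clusters were taken off at véraison, the onset of colouring. In the leaf moving treatment (LM-V), the same leaves were tied aside at véraison and stayed on the shoot, and in the control (C) the leaves were left in place. Each treatment was sampled at E-L 36, E-L 37 and E-L 38 of the modified Eichhorn-Lorenz scale, in which E-L 38 is the harvest-ripe berry, with 3 biological replicates (A, B and C) per group of berries from many pooled vines and with the seeds taken out. The comparisons ask how the set changed as untreated berries ripened, and whether exposing the clusters to sun by either method changed it.

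Pectin is the gel of the middle lamella that holds plant cells together. Pectinesterases remove methyl groups from its homogalacturonan backbone, and the demethylated backbone is the substrate of pectate lyases, which cleave it by elimination, and of polygalacturonases, which cleave it by hydrolysis. Many pectinesterases carry an inhibitor domain, and separate inhibitor proteins of the same fold also exist, so that a weak match to a pectinesterase entry can be an inhibitor. In grape, softening sets in at véraison.

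By annotation the set held 53 pectinesterases, 17 genes that matched a pectinesterase entry but lacked the gene ontology term for the catalytic aspartyl esterase, 31 pectate lyases, 31 polygalacturonases and 16 exopolygalacturonases, which release single units from the chain end. In the same order, 19, 9, 12, 15 and 2 of them were tested. No gene was included by the words pectin acetylesterase, and other spellings of that name were not searched. For 6 of the 148 genes, 4 of them tested, the closest protein and the KEGG entry named different proteins.

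The FPKM values of a library summed to between 600395 and 690035, and relative depth, read from the steps of low values against replicate A of C at E-L 36, lay between 0.917 and 1.03. This reading used only genes whose value in both libraries was close to the gene's lowest positive value. Its range was therefore limited in advance, and it could not show large differences in depth. Absolute depth is unknown. The berry markers were present in all libraries, with UFGT, the glucosyltransferase of anthocyanin synthesis, between 26.8 and 86.9 FPKM, and the 15 thaumatin-like genes, 10 of them tested, summing to between 511 and 2786 FPKM. The summed FPKM of 2 seed storage genes reached at most 6.03 in C, and was between 0.26 and 33.2 in LR-V at E-L 36, 0.37 and 63.1 at E-L 37 and 2.94 and 55.1 at E-L 38. In LM-V it was at most 0.22 FPKM at E-L 36, 17.5 FPKM at E-L 37 and 3.97 FPKM at E-L 38. A seed index, the mean log2(FPKM + 1) of these genes, exceeded 3 in 6 libraries, namely LR-V replicate A at E-L 36, B and C at E-L 37, A and C at E-L 38, and replicate B of LM-V at E-L 37. The counts below are given without these libraries where that changes them. In whole deseeded berries, fewer cells of a type and less RNA per cell cannot be told apart.

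Most of the RNA of the set came from a few genes. A mean FPKM of at least 10 over all libraries was reached by 17 of the 148 genes, and of at least 100 by 3. The gene with the highest level by far was VIT_216s0022g00960, whose RefSeq symbol is GRIP28, a ripening-related protein that matched a pectinesterase entry without the esterase term. With a mean of 5977 FPKM it ranked 8 among all genes of the table. In C it stood at 6452, 7622 and 7509 FPKM at E-L 36, at 6928, 6944 and 6674 FPKM at E-L 37, and at 4161, 4313 and 4599 FPKM at E-L 38. The 3 libraries of E-L 38 were below all those of the earlier stages, and the difference between E-L 38 and E-L 37 was -0.65 ± 0.11 (SE) in log2(FPKM + 1) (adjusted p = 8.53e-05). This and all later differences come from limma, a linear model across all tested genes, with p-values adjusted by Benjamini-Hochberg over all of them, and a gene is called changed at an adjusted p under 0.05.

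Among the pectinesterases with the esterase term, VIT_212s0035g01900 was the most abundant, with a mean of 380 FPKM. It was at 458, 431 and 494 FPKM in C at E-L 36, at 520, 321 and 306 FPKM at E-L 37, and at 141, 146 and 219 FPKM at E-L 38. The libraries of E-L 37 overlapped with those of E-L 36, whereas those of E-L 38 lay below both, with a difference from E-L 37 of -1.16 ± 0.23 (SE, adjusted p = 0.000695). The next in level were VIT_209s0002g00330 and VIT_214s0108g01170, the latter named pectinesterase 31. The most abundant pectate lyases were VIT_205s0051g00590, with a mean of 74.4 FPKM, VIT_217s0000g09810 and VIT_217s0000g09800. The most abundant polygalacturonase was VIT_208s0007g08330, with a mean of 84.0 FPKM, followed by VIT_205s0077g01710, whose KEGG entry named another protein, and VIT_202s0025g01330. The exopolygalacturonases were low, and the pair tested, VIT_212s0057g00390 and VIT_212s0057g00380, had between 2.03 and 8.12 and between 0.59 and 3.28 FPKM. Among the genes without the esterase term, VIT_205s0020g03470, a weak match with a mean of 169 FPKM, and VIT_211s0016g00590 followed GRIP28.

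The summed level of the pectate lyases in C was 381 ± 46.0 FPKM (SD, n = 3) at E-L 36, 135 ± 31.4 FPKM at E-L 37 and 79.2 ± 13.3 FPKM at E-L 38. That of the pectinesterases was 702 ± 20.3, 537 ± 119 and 292 ± 36.3 FPKM. Both sums were lower at harvest than at E-L 36 in every library of C, LR-V and LM-V. The polygalacturonase sum was 174 ± 17.3, 198 ± 26.3 and 169 ± 16.8 FPKM in C at the 3 stages, and its libraries overlapped between stages. These sums describe the levels and were not tested.

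**Figure D1:**
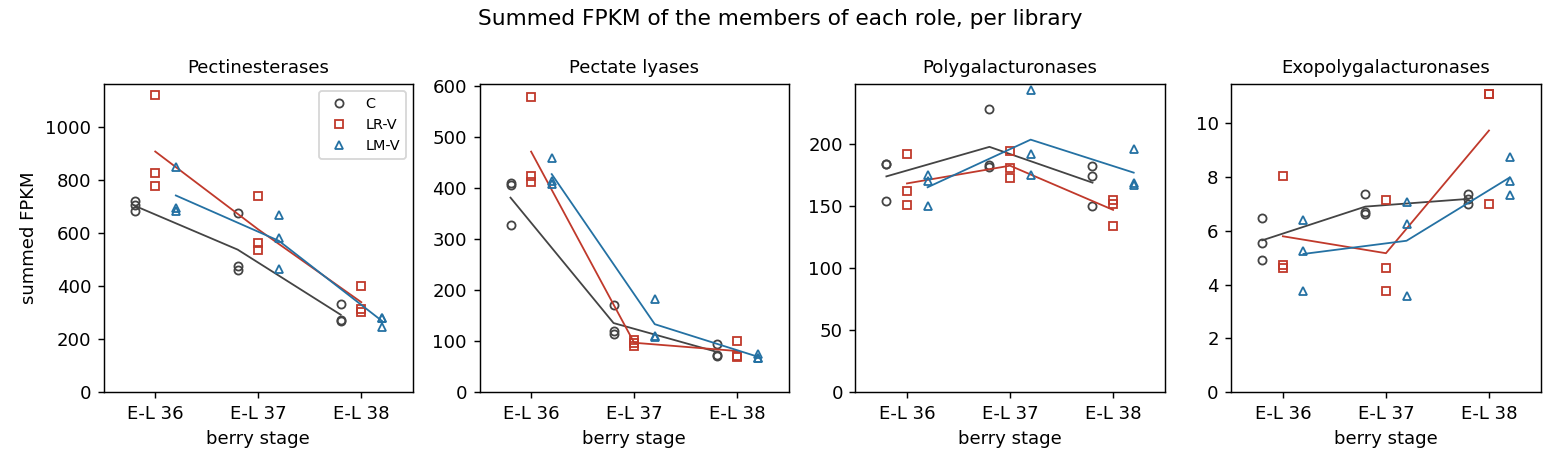
Summed FPKM (vertical axes, from 0, a different scale in each panel) of all members of 4 roles by berry stage, with 1 symbol per library and lines through the means of C, LR-V and LM-V. The pectinesterase and pectate lyase sums lie lower at E-L 38 than at E-L 36 in all 3 treatments, from 702 to 292 and from 381 to 79.2 FPKM in the mean of C.

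In untreated berries, 28 and then 23 of the 57 genes changed in the successive ripening steps, and the pectate lyases, pectinesterases and polygalacturonases each held members that rose and members that fell. Between E-L 36 and E-L 37, 28 of the 57 genes changed, 14 higher and 14 lower, against 37.5% of all genes tested, with 27.6% higher and 9.95% lower. Of the pectate lyases 3 rose and 4 fell, of the pectinesterases with the esterase term 3 rose and 8 fell, of the polygalacturonases 5 rose and 2 fell, and of the matches without the term 3 rose and none fell at an adjusted p of 0.05. The median log2 change was 0.10 over the 57 genes and 0.19 over all genes tested. With median-of-ratios scaling, which sets the median over all genes to 0.01, the split was 10 higher and 18 lower. Between E-L 37 and E-L 38, 23 genes changed, 8 higher and 15 lower, against 28.5% of all genes, with 10.9% higher and 17.6% lower. The median was -0.18 over the 57 genes and -0.07 over all genes. Of the 57, 15 genes changed in both steps, 10 of them lower both times and 5 higher both times. These are 26.3%, 17.5% and 8.77% of the 57, beside 14.4%, 5.13% and 6.2% of all genes tested. Over the same stages, the sum of 10 genes annotated as pollen proteins, 8 of them tested and none at 0 in all libraries, lay between 446 and 513 FPKM in C at E-L 36 and between 95.8 and 109 FPKM at E-L 38, and its part in these changes was not tested.

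The steepest falls belonged to pectate lyases. VIT_205s0051g00590, which matched the symbol PL1, had 236, 173 and 168 FPKM in C at E-L 36, 16.1, 24.8 and 22.3 FPKM at E-L 37, and 2.78, 2.18 and 7.34 FPKM at E-L 38. The 3 stages did not overlap, and the steps were -3.14 ± 0.38 (SE, adjusted p = 3.38e-06) and -2.23 ± 0.38 (adjusted p = 0.000197). VIT_201s0137g00240, a pectate lyase 4-like gene, had 22.0, 23.7 and 16.0 FPKM at E-L 36 and 0.74, 0.59 and 0.64 FPKM at E-L 37. From E-L 37 on it was below FPKM 1 in every control library, and the first step was -3.69 ± 0.36 (adjusted p = 1.33e-07). VIT_213s0019g04910, another pectate lyase, went from 13.8 ± 2.38 FPKM (SD, n = 3) to 2.04 ± 0.85 and 0.30 ± 0.27 FPKM.

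The pectinesterases VIT_209s0002g00330 and VIT_209s0002g00320, whose identifiers are consecutive, both fell in each step. Their KEGG entries matched the same grape gene, and the sources used here do not say how shared reads were counted. Their values may therefore not be separate measurements. VIT_209s0002g00330 had 119, 119 and 121 FPKM at E-L 36, 28.3, 34.2 and 29.4 FPKM at E-L 37, and 9.46, 5.91 and 14.0 FPKM at E-L 38. The spread at E-L 36 was small beside the fall, and the steps were -1.93 ± 0.22 and -1.62 ± 0.22 (adjusted p = 8.23e-07 and 1.03e-05). VIT_209s0002g00320 went from 20.2 ± 4.26 to 3.80 ± 0.45 and 0.94 ± 0.29 FPKM. VIT_207s0005g00730 also fell in both steps and stood at 0.79 ± 0.12 FPKM at harvest. Among the polygalacturonases, VIT_202s0025g01330 fell from 41.8 ± 5.31 to 16.9 ± 1.61 and 5.73 ± 1.79 FPKM, with steps of -1.25 ± 0.20 and -1.44 ± 0.20 (adjusted p = 3.70e-05 and 1.20e-05).

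Other members of the same families rose. The pectinesterase VIT_215s0048g00500 had 4.83, 3.49 and 1.15 FPKM in C at E-L 36, 38.4, 33.7 and 40.0 FPKM at E-L 37, and 34.1, 32.0 and 24.3 FPKM at E-L 38. All libraries from E-L 37 on were above those of E-L 36, with a first step of 3.32 ± 0.43 (SE, adjusted p = 5.65e-06). Its neighbour by identifier number, VIT_215s0048g00480, rose from 0.50 ± 0.51 to 6.38 ± 2.26 FPKM (2.31 ± 0.55, adjusted p = 0.00216). The polygalacturonase VIT_216s0050g01110 had 0.48, 0.49 and 0.32 FPKM at E-L 36, 4.43, 3.64 and 3.49 FPKM at E-L 37, and 9.63, 8.81 and 6.11 FPKM at E-L 38. It rose in both steps, by 1.76 ± 0.20 and 0.90 ± 0.20 (adjusted p = 8.41e-07 and 0.00155). The polygalacturonase VIT_208s0007g07780 was higher at E-L 37 by 1.79 ± 0.58 (adjusted p = 0.0177), a call that was lost without replicate B of E-L 36 (adjusted p = 0.0575) or replicate C of E-L 37 (adjusted p = 0.0881).

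Pectinesterase 31 (VIT_214s0108g01170) rose from 19.7 ± 2.58 to 31.0 ± 1.25 and 40.2 ± 5.68 FPKM. Between E-L 37 and E-L 38, rises were also called for VIT_204s0023g02970, at 23.3 ± 2.99 and 45.0 ± 5.45 FPKM, whose closest protein belongs to an uncharacterised family, and for VIT_219s0015g00500, a pectate lyase 15-like gene whose KEGG entry is a beta-amylase, at 6.83 ± 0.62 and 11.2 ± 1.09 FPKM. The rise of the pectinesterase VIT_214s0060g00390 (0.70 ± 0.22, adjusted p = 0.0186) was lost without replicate B of E-L 37 (adjusted p = 0.136) or replicate A of E-L 38 (adjusted p = 0.108).

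**Figure D2:**
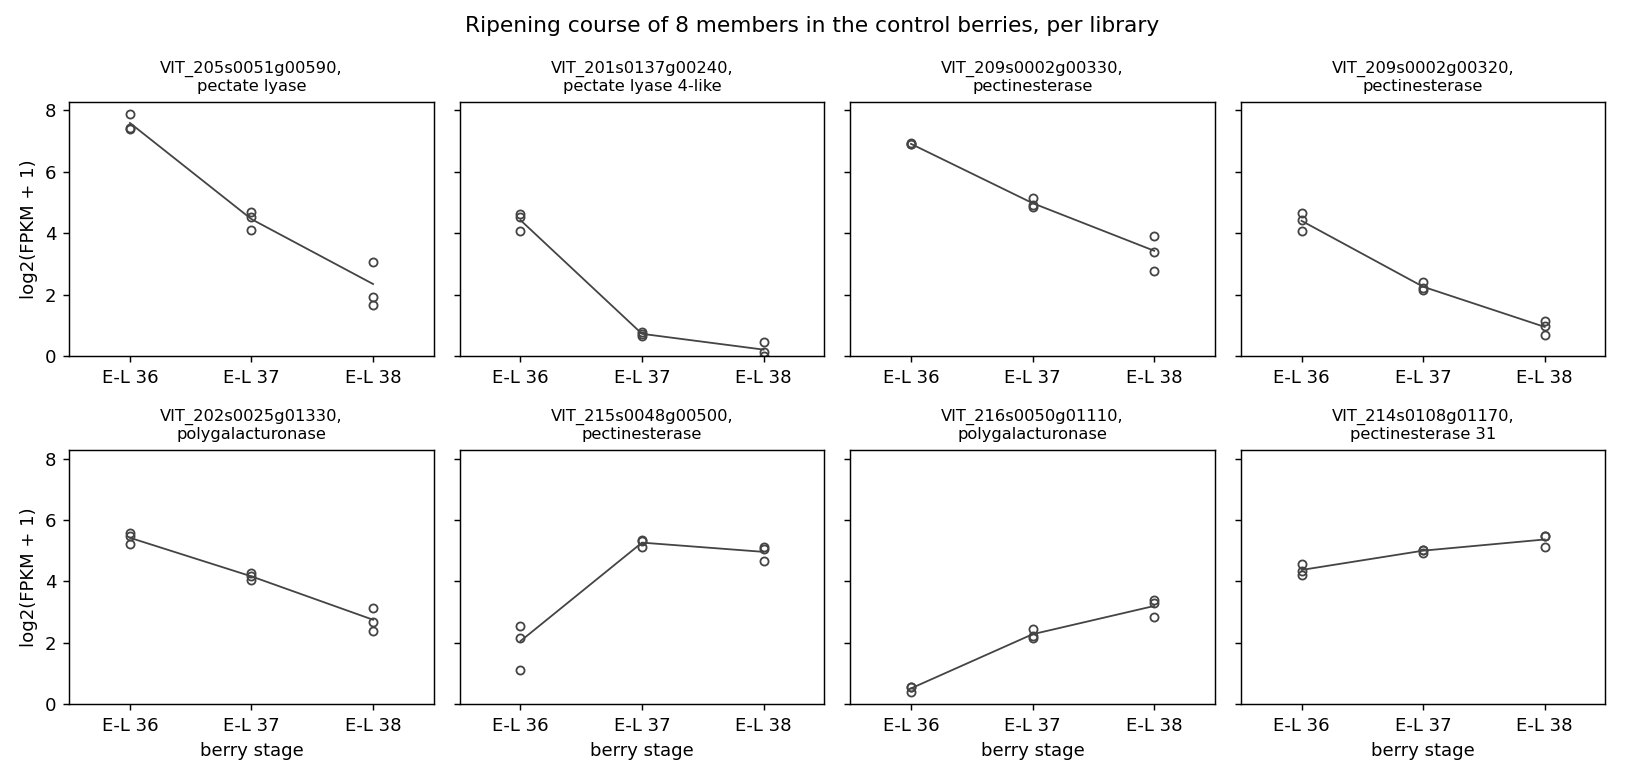
Level of 8 members in the control berries, as log2(FPKM + 1) on the vertical axis (the same scale in all panels), by berry stage, with 1 circle per library and a line through log2 of the mean FPKM + 1. The first 5 genes are lower at each later stage, VIT_205s0051g00590 from 192 to 4.10 FPKM in the mean, and the last 3 are higher at E-L 37 and E-L 38 than at E-L 36.

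In the 6 comparisons of a treatment with C, 19 of the 57 genes (33.3%) were called at least once and 38 never, beside 28.2% of all genes tested that were called at least once. The smallest adjusted p was at harvest, for a pectate lyase 4-like gene in LM-V (limma, adjusted p = 1.61e-05). At that stage this gene and a polygalacturonase were higher than in C in both treatments, and a pair of pectate lyase 5-like genes was lower. In LR-V the calls of the pair (limma, adjusted p = 0.012 and 0.00647) were weaker than several other calls. They were also lost in some alternative fits. The controls are shared, so the comparisons of LR-V and LM-V with C at a stage are not independent.

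At E-L 38, 14 of the 57 genes differed between LR-V and C, 7 higher and 7 lower, against 17.8% of all genes tested. The pectate lyases contributed 3 higher and 2 lower genes of 12, the matches without the esterase term 2 higher and 3 lower of 9, the pectinesterases 1 higher and 1 lower of 19, and the polygalacturonases 1 higher and 1 lower of 15. In LM-V 5 genes differed, 2 higher and 3 lower, against 9.5% of all genes, and all 5 were among the 14 of LR-V. The matching share over all genes was not counted, and both comparisons use the same controls. The overlap can therefore not be read as a trait of the set. The medians over the 57 genes were 0.08 in LR-V and -0.02 in LM-V, beside 0.02 and -0.02 over all genes. The LR-V count was 9 without its replicate A or C and 4 without the 6 libraries of high seed index, which leaves 1 LR-V library at E-L 38, assumed to vary like the other groups. It was 5 when only LR-V and C of that stage were fitted, and the LM-V count was 5 in both of the latter fits. The shares of all genes given here belong to the unaltered fit. These counts therefore do not show whether the set lost calls more than other genes did. The pollen-annotated sum was between 141 and 165 FPKM in LR-V, 87.3 and 114 FPKM in LM-V and 95.8 and 109 FPKM in C at this stage, and its part was not tested.

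The pectate lyase 5-like genes VIT_217s0000g09810 and VIT_217s0000g09800 have consecutive identifiers and the same closest protein name, and the sources used here do not say how reads shared by such copies were counted, so their values may not be separate measurements. At E-L 38, VIT_217s0000g09810 had 15.9, 16.4 and 30.4 FPKM in C, 6.69, 7.87 and 14.1 FPKM in LR-V, and 4.58, 3.06 and 4.19 FPKM in LM-V. Neither treatment overlapped with C, and LM-V was below LR-V in every library. The difference from C was -1.06 ± 0.28 (SE, adjusted p = 0.012) in LR-V and -2.10 ± 0.28 (adjusted p = 5.82e-05) in LM-V, a mean 2.19 times and 5.30 times below that of C. VIT_217s0000g09800 had 11.2, 8.97 and 18.1 FPKM in C, 2.61, 4.90 and 7.70 FPKM in LR-V, and 3.08, 2.94 and 2.61 FPKM in LM-V at this stage. Both treatments were again below all controls, by -1.21 ± 0.30 (adjusted p = 0.00647) in LR-V and -1.77 ± 0.30 (adjusted p = 0.000561) in LM-V. The LM-V calls of both genes held in every alternative fit. In LR-V that of VIT_217s0000g09810 was lost without C replicate C (adjusted p = 0.0755), without LR-V replicate A (0.0689), without the libraries of high seed index (0.102) and in the fit of only those groups (0.0783), and that of VIT_217s0000g09800 without LR-V replicate A (0.0508) and in that last fit (0.0731).

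In LR-V the pair was lower than in C at E-L 37 as well. VIT_217s0000g09800 had 28.0, 44.9 and 29.8 FPKM in C, 14.0, 8.33 and 11.5 FPKM in LR-V and 18.0, 25.3 and 13.7 FPKM in LM-V. All treated libraries were below the controls, with a difference of -1.52 ± 0.30 (adjusted p = 0.00461) in LR-V and -0.83 ± 0.30 (adjusted p = 0.248) in LM-V. VIT_217s0000g09810 differed by -1.09 ± 0.28 (adjusted p = 0.0281) in LR-V and by -0.34 ± 0.28 (adjusted p = 0.666) in LM-V. The former was lost without C replicate B (adjusted p = 0.15), without LR-V replicate A (0.0892) or C (0.0953), in the fit of only those groups (0.0908) and with median-of-ratios scaling (0.0536). Leaving out the libraries of high seed index keeps only LR-V replicate A at E-L 37, which gives no replicated comparison. At E-L 36 neither gene was called, with differences of 0.49 and 0.50 in LR-V and of 0.57 and 0.49 in LM-V, all above 0.

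The pectate lyase 4-like gene VIT_216s0039g00260 went the other way. At E-L 38 it had 1.96, 3.23 and 2.58 FPKM in C, 6.19, 9.62 and 9.76 FPKM in LR-V, and 15.7, 16.3 and 8.45 FPKM in LM-V. All treated libraries were above all controls, by 1.40 ± 0.24 (adjusted p = 0.000344) in LR-V and 1.98 ± 0.24 (adjusted p = 1.61e-05) in LM-V, and both calls held in every alternative fit. At E-L 36 and E-L 37 no library of any treatment exceeded 3.14 FPKM. VIT_216s0039g00280, chosen after its values were seen because it carries the same name and lies close by in number, had 5.79 ± 0.30 FPKM in C, 6.56 ± 0.25 FPKM in LR-V and 7.87 ± 0.81 FPKM in LM-V (adjusted p = 0.518 and 0.112). Both genes and VIT_201s0137g00240 had the same closest RefSeq gene. How reads shared between them were counted is not stated, so their values may not be separate measurements either.

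The polygalacturonase VIT_202s0025g00260 had 2.93, 3.58 and 2.49 FPKM in C, 8.75, 4.71 and 22.4 FPKM in LR-V, and 11.4, 16.2 and 7.92 FPKM in LM-V at E-L 38. Again no treated library reached down to the controls, although LR-V replicate C stood far above the other LR-V libraries. The difference was 1.46 ± 0.34 (adjusted p = 0.00423) in LR-V and 1.64 ± 0.34 (adjusted p = 0.00314) in LM-V. In LR-V it was 0.52 (adjusted p = 0.458) without the libraries of high seed index, and the call was also lost with a pseudocount of 0.1 (adjusted p = 0.0525) and in the fit of only those groups (0.0888).

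VIT_211s0016g00590, which matched a pectinesterase entry without the esterase term and carries a gene ontology term for pectinesterase inhibition, was lower in both treatments at harvest. It had 46.3, 54.7 and 51.0 FPKM in C, 28.1, 37.3 and 35.0 FPKM in LR-V, and 36.0, 34.1 and 30.1 FPKM in LM-V. No treated library overlapped with C, and the difference was -0.59 ± 0.15 in both (adjusted p = 0.00841 in LR-V and 0.015 in LM-V). The LR-V call was lost without LR-V replicate A (adjusted p = 0.0566) or without the libraries of high seed index (0.19), and the LM-V call without C replicate B (0.0697) or LM-V replicate C (0.0659).

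**Figure D3:**
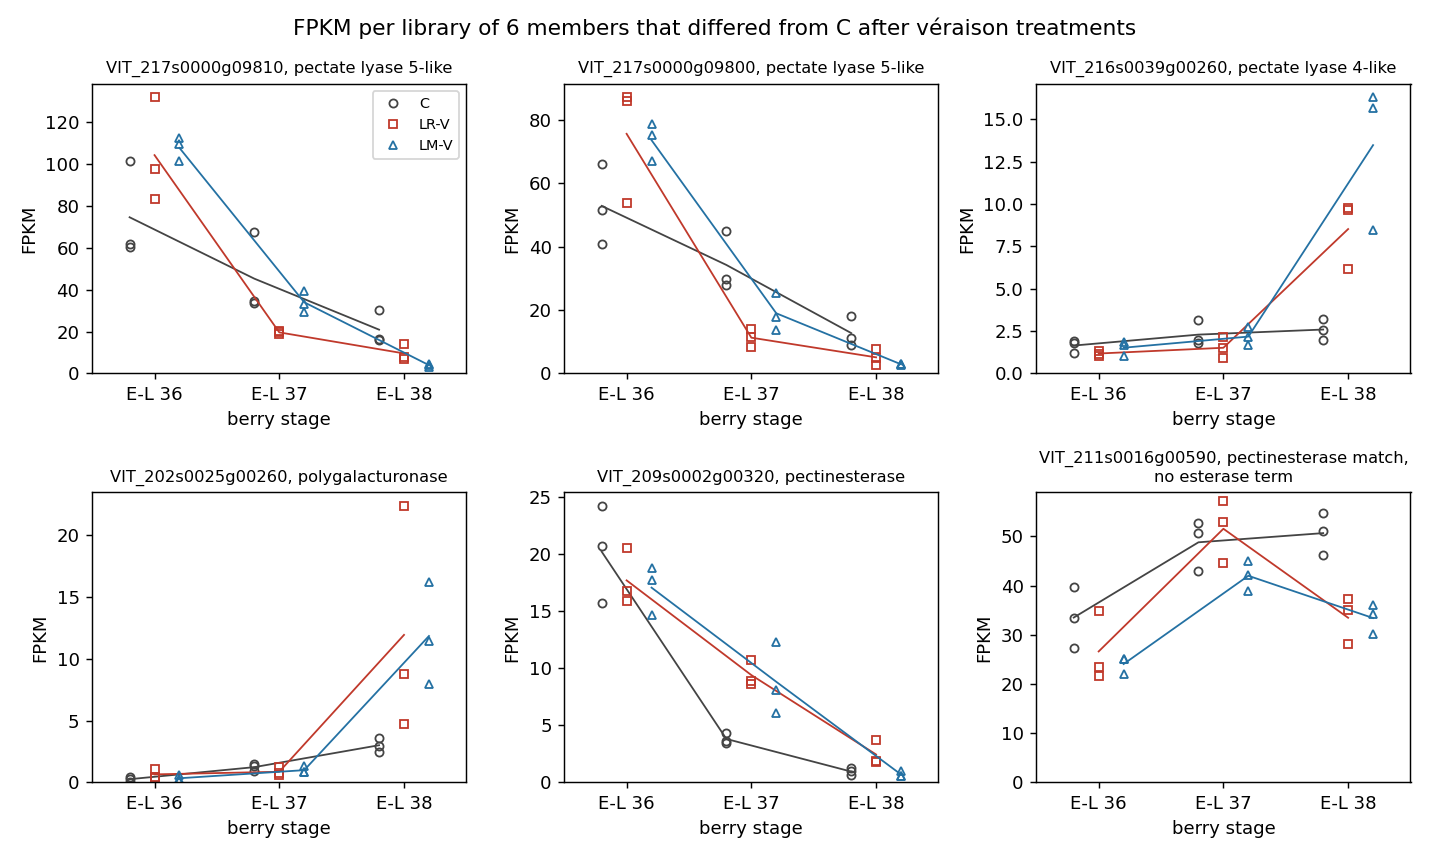
FPKM (vertical axes, from 0, a different scale in each panel) of 6 members by berry stage, with 1 symbol per library of C, LR-V and LM-V and lines through the group means. At E-L 38 the pair of pectate lyase 5-like genes lies below C in both treatments, at means of 9.54 and 3.94 beside 20.9 FPKM for VIT_217s0000g09810, while VIT_216s0039g00260 and VIT_202s0025g00260 lie above C.

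The other 9 genes called at E-L 38 were called in LR-V alone, which does not show that the treatments differed in them. Among the pectate lyases, VIT_208s0040g02740 had 13.7, 14.1 and 13.1 FPKM in C and 22.0, 17.6 and 27.7 FPKM in LR-V, and the groups did not overlap. Its difference was 0.66 ± 0.14 (adjusted p = 0.00256), but 0.34 (adjusted p = 0.272) without the libraries of high seed index, while LM-V had 17.5 ± 2.79 FPKM (0.33 ± 0.14, adjusted p = 0.159). VIT_213s0019g04910 stood at 0.30 ± 0.27 FPKM in C and 2.01 ± 1.12 FPKM in LR-V (adjusted p = 0.00584). Its call was lost without LR-V replicate C (adjusted p = 0.0592), without the libraries of high seed index (0.278) and in the fit of only those groups (0.0554).

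Of the genes without the esterase term, VIT_204s0023g02970 was lower in LR-V, with 48.3, 48.0 and 38.7 FPKM in C and 34.9, 28.0 and 26.9 FPKM in LR-V. The groups did not overlap, the difference was -0.57 ± 0.11 (adjusted p = 0.00118), and it was called in every alternative fit by limma. The authors' rule, which asks for a fold change of 2, did not pick it when rebuilt on these values. VIT_217s0000g05960, named as a pectinesterase with an inhibitor domain, was at 15.8 ± 1.70 FPKM in C and 11.5 ± 1.20 FPKM in LR-V (-0.43 ± 0.11, adjusted p = 0.0103). It was no longer called without C replicate B (adjusted p = 0.0719), without LR-V replicate A (0.06), without the libraries of high seed index (0.177) or in the fit of only those groups (0.0611). The remaining 5 were the pectinesterases VIT_209s0002g00320, which is described with E-L 37, and VIT_214s0060g00390 (-0.79), the matches VIT_205s0020g03470 (0.28) and VIT_201s0011g05390 (1.60), and the polygalacturonase VIT_214s0060g00620 (-0.75).

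**Figure D4:**
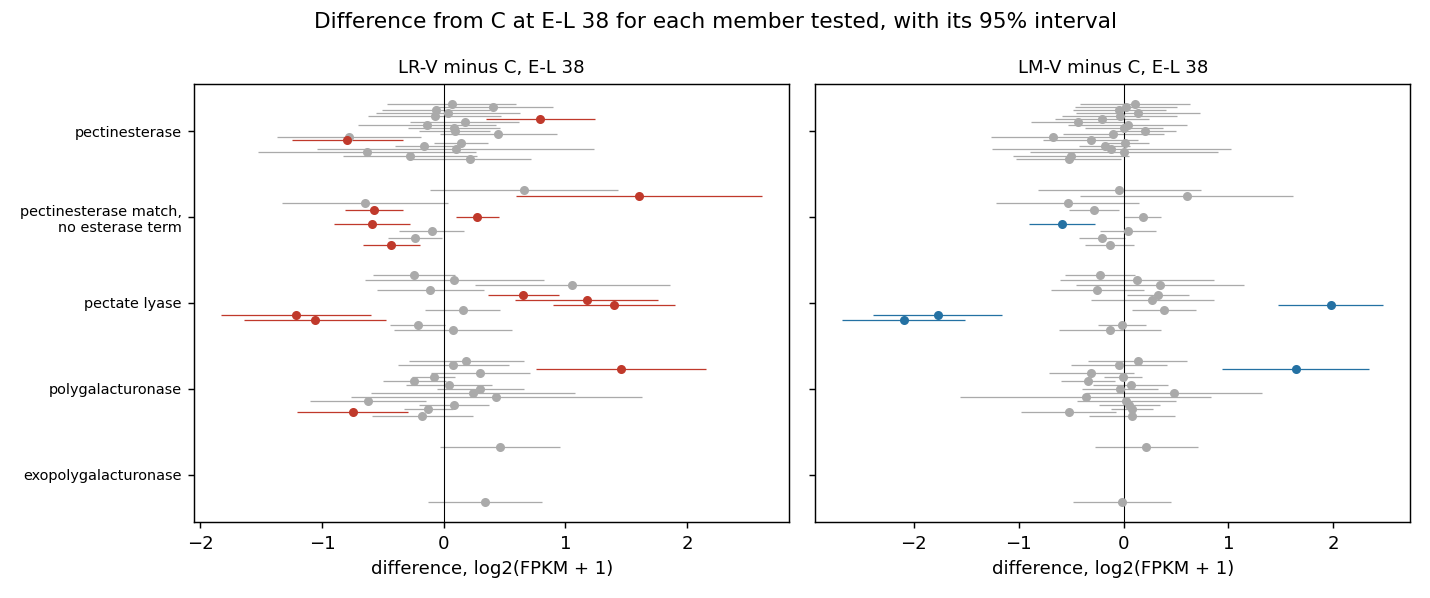
Difference from C at E-L 38 in log2(FPKM + 1) (horizontal axes) for each of the 57 genes tested, by role, for LR-V on the left and LM-V on the right, with bars for the 95% interval. Coloured points are the 14 and 5 genes with an adjusted p below 0.05 and grey points the others. The pectate lyases hold both the lowest and the highest LM-V values, -2.10 and 1.98.

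At E-L 37, 3 of the 57 genes differed between LR-V and C, 1 higher and 2 lower, against 5.01% of all genes tested, and 1 gene was higher in LM-V, against 0.572%. The median over the 57 genes was -0.06 in LR-V and -0.04 in LM-V, beside -0.09 and -0.08 over all genes. The lower genes were the pectate lyase 5-like pair, and the higher gene was in both treatments the pectinesterase VIT_209s0002g00320. It had 3.47, 4.31 and 3.61 FPKM in C, 10.7, 8.59 and 8.89 FPKM in LR-V, and 8.11, 12.3 and 6.05 FPKM in LM-V. All treated libraries were above the controls. The difference was 1.11 ± 0.21 (adjusted p = 0.00393) in LR-V and 0.99 ± 0.21 (adjusted p = 0.0357) in LM-V. The LR-V call held in every alternative that kept more than 1 LR-V library. Leaving out the libraries of high seed index keeps only LR-V replicate A at this stage. The LM-V call was lost when any library of the comparison but LM-V replicate C was left out, with adjusted p between 0.0785 and 0.283, and in several other settings. The LR-V count was 8 without LR-V replicate B, the library with the highest seed index, and with median-of-ratios scaling its split was 2 higher and 1 lower.

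At E-L 38 the same gene had 0.97, 0.63 and 1.21 FPKM in C, 1.83, 3.68 and 1.80 FPKM in LR-V and 0.51, 0.57 and 0.96 FPKM in LM-V. LR-V was above both other groups in every library. Its difference from C was 0.80 ± 0.21 (adjusted p = 0.0126), lost without C replicate B (adjusted p = 0.072), without LR-V replicate B (0.0764) and in the fit of only those groups (0.101).

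Within C at E-L 37, VIT_215s0048g00500 lay between 33.7 and 40.0 FPKM, but among the treated libraries it varied widely. It had 10.4, 43.8 and 13.3 FPKM in LR-V and 30.8, 14.7 and 42.7 FPKM in LM-V. Both treated groups overlapped with C, and neither difference passed the test (adjusted p = 0.195 and 0.716). Its neighbour VIT_215s0048g00480 was likewise high in LR-V replicate B, at 5.95 FPKM beside 0.95 and 0.56 FPKM in the other LR-V libraries.

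At E-L 36, 6 genes were higher in LR-V than in C and none was lower at an adjusted p of 0.05, against 5.54% of all genes tested, with 4.08% higher and 1.46% lower. They were 2 pectate lyases, 3 pectinesterases with the esterase term and 1 match without it. The median was 0.04 over the 57 genes and 0.02 over all genes. VIT_201s0137g00240, the pectate lyase 4-like gene with the steepest fall in C between E-L 36 and E-L 37, had 22.0, 23.7 and 16.0 FPKM in C and 45.9, 84.6 and 34.5 FPKM in LR-V. The groups did not overlap, and the difference was 1.29 ± 0.36 (adjusted p = 0.0337), while LM-V had 34.6 ± 9.92 FPKM (0.70 ± 0.36, adjusted p = 0.759). The pectinesterase VIT_216s0098g01900 had 8.20, 8.26 and 7.20 FPKM in C and 15.9, 20.7 and 11.8 FPKM in LR-V (0.92 ± 0.24, adjusted p = 0.0274), again without overlap.

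The pectinesterase 2-like gene VIT_206s0009g02590 was at 1.55 ± 0.61 FPKM in C and 4.85 ± 1.58 FPKM in LR-V (adjusted p = 0.0153), and the pectate lyase VIT_207s0005g05520 at 0.75 ± 0.45 and 2.07 ± 0.84 FPKM (adjusted p = 0.0281). Pectinesterase 31 was higher by 0.41 ± 0.12 (adjusted p = 0.0417). The match VIT_201s0011g05390 had 0.41 FPKM, a listed 0 and 0.61 FPKM in C and 12.7, 2.89 and 1.98 FPKM in LR-V (2.04 ± 0.49, adjusted p = 0.0154), and its highest value was in the library with high seed index. These calls were not stable. The count was 2 without C replicate A, 3 without B and 1 without C, 2 without LR-V replicate A and 1 without B, 3 without the libraries of high seed index, and 0 when only these groups were fitted.

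In LM-V at E-L 36 limma called 0 of the 57 genes, against 0.0708% of all genes, and 6 had an unadjusted p under 0.05. The share of all genes under that unadjusted threshold was not counted, so the 6 cannot be read as an effect on the set. The authors' rule, a fold change of 2 with a NOISeq probability of 0.8, picked 0 as well when rebuilt on these values. The median was -0.06 over the 57 genes and -0.01 over all genes.

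The change of effect with stage was tested as the difference between the treatment effects at E-L 38 and at E-L 36. In LR-V it was called for 8 of the 57 genes, 2 higher and 6 lower, against 8.35% of all genes, and in LM-V for 3 genes, 1 higher and 2 lower, against 3.1%. VIT_217s0000g09810 and VIT_217s0000g09800 had negative values in both, of -1.55 ± 0.40 and -1.72 ± 0.42 in LR-V (adjusted p = 0.0177 and 0.0125) and of -2.66 ± 0.40 and -2.27 ± 0.42 in LM-V (adjusted p = 0.000418 and 0.0031). VIT_216s0039g00260 had positive values, of 1.67 ± 0.34 in LR-V and 2.05 ± 0.34 in LM-V (adjusted p = 0.00344 and 0.00114). By this test the effect on these 3 genes differed between the stages in both treatments, but the pair may not be separate measurements. The LM-V calls held in every alternative. In LR-V the call of VIT_216s0039g00260 held in every alternative with more than 1 LR-V library at E-L 38. The LR-V calls of the pair were not followed through the alternatives. For VIT_202s0025g00260 the test gave adjusted p = 0.178 in LR-V and 0.0824 in LM-V.

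The other 5 genes called in LR-V were the pectate lyase VIT_208s0040g02740 (0.90), pectinesterase 31 (-0.57), the pectinesterase VIT_213s0047g00230 (-1.38), and the matches VIT_204s0023g02970 (-0.68) and VIT_217s0000g05960 (-0.78). VIT_213s0047g00230, which was called in neither stage alone, had 13.0 ± 2.95 FPKM in LR-V beside 8.41 ± 3.06 in C at E-L 36, and 0.76 ± 0.23 beside 2.05 ± 0.65 FPKM at E-L 38. The count in LR-V was 5 without LR-V replicate B of E-L 36 and in the fit of only these groups, and 3 without the libraries of high seed index.

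Compared directly, the treatments differed in few genes of the set. LR-V and LM-V gave 0 calls by limma at E-L 36, against 0.0354% of all genes, and 0 at E-L 37, against 0%, with 6 and 4 genes at an unadjusted p under 0.05. For these unadjusted numbers too, the share of all genes was not counted. At E-L 36, 1 gene was called without LM-V replicate A. The rebuilt rule was not applied to this contrast. At E-L 38, 2 genes were higher in LR-V than in LM-V and none was lower, against 7.45% of all genes. They were the pectinesterase VIT_209s0002g00320 (1.00 ± 0.21, adjusted p = 0.00667), which lost its call in the fit of only those groups (adjusted p = 0.123), and VIT_217s0000g09810 (1.04 ± 0.28, adjusted p = 0.0272), which lost it without any 1 of the LM-V libraries or LR-V replicate C (0.0552 to 0.2), in the fit of only those groups (0.116), with a seed covariate (0.0563) and without the libraries of high seed index (0.471). The count was 1 without LM-V replicate A or LR-V replicate C, 6 without LR-V replicate B, and 4 without the filter on low values. For VIT_216s0039g00260 the difference was -0.58, with a 95% interval from -1.08 to -0.08 (adjusted p = 0.152), and for VIT_202s0025g00260 -0.18, with an interval from -0.88 to 0.52.

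GRIP28 and the most abundant pectinesterase, pectate lyase and polygalacturonase were called by limma in no comparison with C or between treatments. The rebuilt rule of the authors picked the pectate lyase VIT_205s0051g00590 in LM-V at E-L 37, at 42.2 ± 29.8 FPKM beside 21.0 ± 4.46 FPKM in C. GRIP28 at E-L 38 had 3201, 4343 and 3629 FPKM in LR-V and 3817, 3970 and 3570 FPKM in LM-V, beside 4161, 4313 and 4599 FPKM in C. LM-V lay below all controls and LR-V overlapped with them, with differences of -0.24 ± 0.11 (adjusted p = 0.133) in LR-V and -0.20 ± 0.11 (adjusted p = 0.258) in LM-V. The pectinesterase VIT_212s0035g01900 had 230 ± 53.9 FPKM in LR-V and 155 ± 15.6 FPKM in LM-V beside 169 ± 43.7 FPKM in C (adjusted p = 0.197 and 0.866). The pectate lyase VIT_205s0051g00590 had 9.10 ± 3.74, 5.04 ± 1.61 and 4.10 ± 2.82 FPKM in LR-V, LM-V and C (adjusted p = 0.0622 and 0.654), and the polygalacturonase VIT_208s0007g08330 had 56.4 ± 16.8, 86.7 ± 15.0 and 84.8 ± 10.4 FPKM (adjusted p = 0.0643 and 0.974).

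Other genes of the wall were counted in the same fit by annotation words, and their counts are to be read beside the shares of all genes tested, which were 37.5% and 28.5% in the ripening steps of C, 17.8% in LR-V at E-L 38 and 9.5% in LM-V at E-L 38. Of 38 tested xyloglucan endotransglucosylases, which cut and rejoin xyloglucan, 9 rose and 13 fell in C between E-L 36 and E-L 37, and 4 rose and 14 fell between E-L 37 and E-L 38. Of 13 expansins, which loosen the wall without cutting it, none rose at an adjusted p of 0.05 in either step, and 5 and 6 fell. Of 20 galacturonosyltransferases, which build pectin, 2 rose and 9 fell in the first step, and 1 rose and 8 fell in the second. The counts were 2 higher and 4 lower, then 0 and 6, for 20 beta-galactosidases, and 5 higher and 7 lower, then 2 and 11, for 35 genes annotated with the words cellulose synthase. These words also match longer names such as cellulose synthase-like, so the list may hold other proteins. At E-L 38, 16 of these 35 genes were higher and none was lower in LR-V than in C (45.7%), with a median of 0.60, and 2 were higher in LM-V. LR-V replicates A and C at E-L 38 had a high seed index, and the part of seed RNA in the wall counts was not tested. In LR-V, 6 xyloglucan endotransglucosylases were higher and 3 lower, 3 expansins were higher, 3 beta-galactosidases were higher and 1 lower, and 2 galacturonosyltransferases were higher and 2 lower. In LM-V, 2 xyloglucan endotransglucosylases and 1 beta-galactosidase were lower, 3 galacturonosyltransferases were higher and 2 lower, and no expansin was called. Of 2 rhamnogalacturonate lyases, which cut the branched part of pectin, 1 rose between E-L 36 and E-L 37, and the 1 arabinofuranosidase tested rose in both steps and was higher in LM-V at E-L 38.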

How the data were processed

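RNA of deseeded berries was sequenced in 27 libraries, 3 per group. The authors aligned the reads to the grapevine genome V2 (Bowtie2 2.2.5 in the submitters' processing notes) and deposited FPKM values per gene, to 2 decimals; which program computed them is not stated in the sources used here. Counts were not used here, so absolute depth is unknown and low values are less precise. The 19761 genes that reached FPKM 1 in 3 or more libraries were fitted as log2(FPKM + 1) with limma 3.58.1 (statmod 1.5.0, R 4.3.3) in a model of 9 group means with an intensity trend and robust moderation, and p-values were adjusted by Benjamini-Hochberg over all genes of a comparison (threshold 0.05). All fold changes are on this scale, which understates those of low genes. The script was tested on simulated data. p-values measure the spread between replicates that each pool many vines.

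The members and lists were chosen with earlier results of these data known, and the split of pectinesterase matches by esterase term was made after values were seen. Named genes are the 3 highest of each role, up to 5 called per direction in each comparison between treatments (smallest adjusted p), up to 4 per direction in each ripening step of C (largest change without overlap) and up to 3 in each test between stages. VIT_216s0039g00280, VIT_205s0020g03470 and VIT_214s0060g00390 at E-L 38, VIT_201s0011g05390 at E-L 38, VIT_214s0060g00620, VIT_213s0047g00230 and the values of VIT_215s0048g00500 at E-L 37 in the treatments were added after their values were seen. Alternatives were no filter, a pseudocount of 0.1, median-of-ratios scaling, only the groups compared, a seed covariate, no trend or robust moderation, a replicate block, each library left out, and the authors' rule (fold change of 2, NOISeq probability of 0.8) rebuilt for the comparisons with C; leaving out the 6 libraries of high seed index was added after seeing the data. GRIP28 and PL1 come from RefSeq names (assembly ASM3070453v1), used for names only because the builds differ.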

Additional observations from a re-analysis of the deposited data

Results flagged for a closer look

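The effect of treatment on these genes differed between E-L 38 and E-L 36 by a test of that difference (limma, adjusted p under 0.05 over all genes). In LR-V the difference of the effects was -1.55 for VIT_217s0000g09810, -1.72 for VIT_217s0000g09800, 0.90 for VIT_208s0040g02740, 1.67 for VIT_216s0039g00260, -0.57 for VIT_214s0108g01170, -1.38 for VIT_213s0047g00230, -0.68 for VIT_204s0023g02970 and -0.78 for VIT_217s0000g05960. In LM-V it was -2.66 for VIT_217s0000g09810, -2.27 for VIT_217s0000g09800 and 2.05 for VIT_216s0039g00260. Both treatments share their control libraries, so the values of the 3 genes called in both are not separate evidence.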

How the results depend on the processing

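Of the counts of genes called, the following changed by more than 1.5 times. The shares of all genes given with the results belong to the unaltered fit. A changed count therefore does not show that the set changed more than other genes did. LR-V against C at E-L 36 (6) gave 2 with a pseudocount of 0.1, 0 with only the groups compared, 2 with a seed covariate, 3 without the libraries of high seed index, 3 by the rebuilt rule and 1 to 5 with 1 library left out. At E-L 37 (3) it gave 2 to 8 with 1 library left out, and at E-L 38 (14) 5 with only the groups compared, 4 without the libraries of high seed index, 4 by the rebuilt rule and 9 to 14 with 1 library left out. LM-V against C at E-L 37 (1) gave 0 without the filter, with a pseudocount of 0.1, with only the groups compared and without the libraries of high seed index, 2 by the rebuilt rule and 0 to 1 with 1 library left out. LR-V against LM-V gave 0 to 1 at E-L 36 (0) with 1 library left out, and at E-L 38 (2) 4 without the filter, 4 with a pseudocount of 0.1, 0 with only the groups compared, 1 with a seed covariate, 1 without the libraries of high seed index and 1 to 6 with 1 library left out. The LR-V effect between stages (8) gave 5 with only the groups compared, 3 without the libraries of high seed index and 5 to 9 with 1 library left out. Fits of fewer samples have fewer degrees of freedom; otherwise the cause was not tested. For the named calls followed through the limma fits, the sign of the difference never reversed. This covers single genes and not the splits of the counts into higher and lower genes. With median-of-ratios scaling the split changed in C between E-L 36 and E-L 37. It also changed in LR-V against C at E-L 37, where the lower genes no longer outnumbered the higher ones. No pairing by replicate letter was seen over all groups. The deviations of libraries with the same letter correlated between -0.46 and 0.33 (median -0.01), over 0.1 in 18 of 108 pairs. With other letters the median was 0.003, and 48 of 216 pairs were over 0.1. Pairs within a stage were not looked at apart. With a replicate block the counts were 5, 3 and 14 in LR-V against C and 0, 1 and 5 in LM-V against C. They were 0, 0 and 2 between the treatments, 27 and 23 in C, and 8 and 3 between stages. FPKM values below about 1 limit what could be tested, and 74 genes of the set above 0 in some library were left out for this.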
